A study of Mus musculus with 6 samples.

Results

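The granin genes Chga, Chgb, Scg2 and Scg3 were followed in adrenal glands of mice that lack PACAP and of wild-type mice. They were found as all cDNA clones on the arrays whose annotated gene, in current mouse symbols, is 1 of these 4. The rule gave 9 clones of 36008 on the array, that is 4 of 11837 named genes: 3 clones for Chga, 2 for Chgb, 1 for Scg2 and 3 for Scg3. Each clone is called here by its gene and by the print block in which it was spotted, a block being the area printed by 1 pin, as in Chga-44. All 9 clones could be tested, and 8 of them were measured on all 6 arrays.

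The samples were total RNA from adrenal glands of PACAP -/- mice, labelled with Cy3 (green), and of PACAP +/+ mice, labelled with Cy5 (red), both F2 mice of the mixed 129XC57BL6 background. Each of 6 two-colour spotted cDNA arrays compared 1 knockout RNA with 1 wild-type RNA. The labels give no age, and they do not say whether the arrays held RNA of separate animals, so p-values speak only of variation among 6 hybridisations, part of which may be technical. No array had the dyes exchanged, so a dye effect of a clone and the effect of the genotype cannot be told apart. The gene deleted in the knockout, Adcyap1, had too few measured spots to be tested, and the genotype labels were not checked by it. The number of arrays limits the precision of every value.

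Granins are acidic, calcium-binding proteins of the dense-core granules of endocrine and nerve cells. In the adrenal medulla, chromaffin cells store them with adrenaline and noradrenaline, and release them together with the amines when the splanchnic nerve fires. Chromogranin A (Chga) and chromogranin B (Chgb) are the bulk granule proteins, chromogranin A also being the precursor of peptides such as catestatin. Secretogranin II (Scg2) is the precursor of secretoneurin, and secretogranin III (Scg3) binds chromogranin A and cholesterol in the granule membrane. PACAP, the pituitary adenylate cyclase-activating polypeptide, is a transmitter of the splanchnic nerve that raises cAMP in chromaffin cells, and cAMP response elements are known in the promoters of Chga, Chgb and Scg2. The comparison asks how the RNA of these genes differs when PACAP is absent.

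The promoters are shown because cAMP acts on granin genes there. Each line gives 110 bases before and 20 bases from the annotated start, 5′ to 3′ on the gene's strand, from RefSeq on build GRCm38.p6, with matches to 3 motifs in capitals. The windows are chr12:102554831-102554960 on the plus strand for Chga, chr2:132781532-132781661 on the plus strand for Chgb, chr1:79440007-79440136 on the minus strand for Scg2 and chr9:75684037-75684166 on the minus strand for Scg3. The start used for Scg3 lies inside the annotated span of the gene, and is not its outermost one.
Chga: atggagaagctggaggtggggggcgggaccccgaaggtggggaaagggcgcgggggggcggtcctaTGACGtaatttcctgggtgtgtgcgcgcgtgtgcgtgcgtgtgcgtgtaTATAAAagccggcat
Chgb: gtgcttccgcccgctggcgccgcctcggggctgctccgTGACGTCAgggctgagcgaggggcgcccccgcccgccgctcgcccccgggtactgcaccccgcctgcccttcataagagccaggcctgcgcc
Scg2: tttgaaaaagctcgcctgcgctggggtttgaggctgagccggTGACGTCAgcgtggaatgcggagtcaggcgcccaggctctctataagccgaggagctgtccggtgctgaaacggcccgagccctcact
Scg3: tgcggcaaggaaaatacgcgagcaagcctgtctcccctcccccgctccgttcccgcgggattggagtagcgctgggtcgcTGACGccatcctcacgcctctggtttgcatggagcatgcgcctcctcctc

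The motifs searched on both strands were TGACGTCA, the palindromic cAMP response element, its core TGACG, which lies within it, and TATAAA. They were chosen after the sequences had been seen. Positions count from 1 at the annotated start, with -1 just before it, and give the first base of the match. Chgb held TGACGTCA at -72 and Scg2 at -68, while Chga held only the core with the start at -44 and Scg3 the core at -30. TATAAA was found in Chga alone, at 6, that is after the annotated start. Every position rests on the annotated start of its gene, which was not tested. Over all 32851 promoters in the table, read from 250 bases before to 50 after the start, TGACGTCA was found in 1.79%, TGACG in 20.8% and TATAAA in 13.6%. In windows of that length the granin genes held TGACGTCA in 2 of 4, TGACG in 4 of 4 and TATAAA in 1 of 4. A match describes letters and does not show that a factor binds there.

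All 9 granin clones gave signal in both channels on every array. Signal is given here in scanner units after background subtraction, before any normalization, and is not compared between clones because clones can differ in length and in the amount printed. Over the 9 clones it lay between 582.6 and 18510.4 in the knockout channel, and between 220.5 and 5084.3 in the wild-type channel. The knockout channel was brighter in 54 of 54 pairs of values. The green channel was the brighter one over the arrays as a whole, and the median log2 ratio over all kept spots of an array, before normalization, lay between 0.37 and 2.15.

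The clone Chga-44 had knockout signals of 9678.6, 7346.6, 10320.7, 5555.2, 8740.8 and 18510.4 on arrays 1 to 6, and wild-type signals of 5084.3, 1584.0, 2192.0, 690.4, 3487.3 and 1221.0. Its knockout values all lay above its wild-type values. Chgb-39 had knockout signals of 5270.2, 3344.0, 3741.3, 2548.5, 4970.0 and 6898.4, and wild-type signals of 2618.5, 729.6, 971.3, 297.0, 1583.9 and 661.5. Here the highest wild-type value, on array 1, lay just above the lowest knockout value, on array 4. Scg3-5 was the clone closest to its local background, at 3.08 to 9.17 times background in the knockout channel and 1.11 to 7.62 times in the wild-type channel. The other 8 clones had wild-type signals of at least 2.03 times background on every array.

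**Figure D1:**
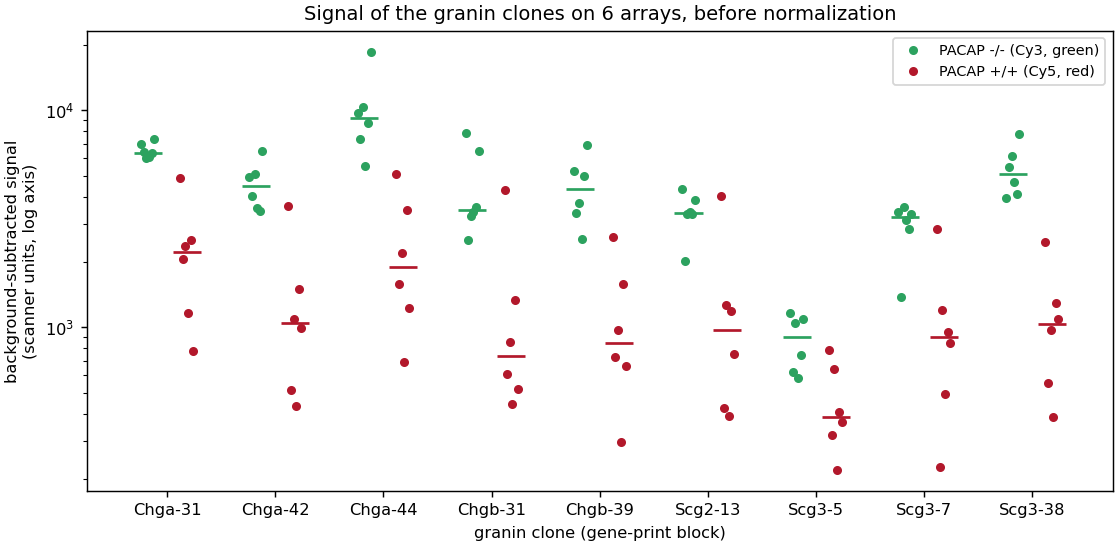
Background-subtracted signal of each granin clone (log axis, scanner units) on the 6 arrays, PACAP -/- in green left of PACAP +/+ in red, before normalization. Points are arrays and lines are medians. Knockout signals lay between 582.6 and 18510.4 and wild-type signals between 220.5 and 5084.3, and the wild-type points of a clone were spread more widely.

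After normalization most granin clones were higher in PACAP -/- adrenals. The ratios below are log2 of knockout over wild type. They are given after global loess, which removes the trend of the ratio with signal over the whole array, and with print-tip loess, which does so within each print block. With global loess, 8 of 9 granin clones passed as higher at an adjusted p of 0.05 in limma, where 16.2% of all 28704 clones passed as higher and 14.2% as lower (30.4% in either direction). With print-tip loess 6 of 9 passed as higher, where 6.74% of all clones did and 4.6% passed as lower, and all 9 lay above 0. The median over the granin clones was 0.98 with global loess and 0.68 with print-tip loess, beside medians over all clones of 0.02 and 0.00. Whole-gland RNA cannot tell more chromaffin cells from more granin RNA per cell.

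These calls depended on the processing and on single arrays. The authors' own value table, in which the background is subtracted a second time, gave 0 granin clones past the threshold in limma (0 also at an unadjusted p under 0.05) and 88 of all clones. With print-tip loess, leaving out array 2, 3, 4 or 6 left 0 granin clones past the adjusted threshold, where 7 to 9 passed unadjusted. Hardly any clone of the whole array passed in those fits either (1, 1, 23 and 1 in that order). Leaving out array 1 or 5 left 7 granin clones, where 3770 and 2692 of all clones passed.

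Chga, for chromogranin A, was higher with each of its 3 clones in global loess. Chga-44, the only Chga clone whose file title names the gene, had log2 ratios of 0.79, 1.21, 1.29, 1.62, 0.31 and 2.32 on arrays 1 to 6. All 6 arrays lay on the knockout side, array 6 highest and array 5 lowest. Its mean was 1.26 ± 0.20 (SE, n = 6; 2.39-fold, adjusted p = 0.0013 in limma), a ratio above that of 99.3% of all clones. With print-tip loess the same clone had 0.08, 0.77, 0.26, 0.65, -0.18 and 0.73, with a mean of 0.39 ± 0.13 that did not pass (adjusted p = 0.0768). It passed there without array 5 (0.50, adjusted p = 0.0423).

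Chga-42, which the file titles as Nedd4a, had 0.24, 1.76, 1.15, 1.52, 0.08 and 1.14 with global loess. Arrays 1 and 5 were close to 0 and the other 4 were above 1. The mean was 0.98 ± 0.20 (SE, n = 6, adjusted p = 0.0038), and 0.83 ± 0.16 with print-tip loess (adjusted p = 0.0274). Chga-31, titled only as an expressed sequence tag, had 0.35, 0.65, 0.36, 1.08, 0.28 and 1.68. Its mean of 0.73 ± 0.17 (adjusted p = 0.0078) became 0.39 ± 0.10 with print-tip loess (adjusted p = 0.0395), higher on 6 of 6 arrays in both.

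Chgb, for chromogranin B, gave nearly equal ratios from its 2 clones. Chgb-39, titled as the gene, had 0.80, 1.01, 0.83, 1.49, 0.57 and 1.80 on arrays 1 to 6. No array was below 0.57, and the mean of 1.08 ± 0.16 (SE, n = 6; 2.12-fold, adjusted p = 0.0009) had the lowest adjusted p among the granin clones with global loess. Chgb-31, titled as a tag, had 0.70, 0.81, 0.79, 1.41, 0.30 and 2.02, with a mean of 1.01 ± 0.19 (adjusted p = 0.0025). With print-tip loess Chgb-39 was at 0.68 ± 0.12 and Chgb-31 at 0.70 ± 0.12, both with adjusted p = 0.0243 and higher on 6 of 6 arrays. In that normalization Chgb-39 ran from 0.32 on array 5 to 1.07 on array 6, and Chgb-31 from 0.13 on array 5 to 1.13 on array 4.

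Scg2, for secretogranin II, rests on Scg2-13 alone, which the file titles as a patched homolog. It had -0.08, 0.95, 0.29, 1.57, 0.37 and 0.73 on arrays 1 to 6. Array 1 showed no excess in the knockout and array 4 the largest. The mean was 0.64 ± 0.18 (SE, n = 6; 1.56-fold, adjusted p = 0.0173), and the call was lost without array 2 (0.58, adjusted p = 0.0531) or array 4 (0.45, adjusted p = 0.0708). With print-tip loess the values were 0.08, 1.10, 0.63, 1.92, 0.55 and 1.05, and the mean was 0.89 ± 0.19 (adjusted p = 0.0306). A further clone that the file titles as secretogranin II has no annotated gene and lies outside the rule. It was at 0.34 ± 0.15 (higher on 4 of 6 arrays, adjusted p = 0.0876), or 0.24 ± 0.09 with print-tip loess (adjusted p = 0.116), and did not pass in either.

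Scg3, for secretogranin III, had the widest spread among its 3 clones, although the file titles each of them as the gene. Scg3-38 had 0.43, 2.16, 1.58, 2.11, 0.57 and 1.29 on arrays 1 to 6. The knockout was higher on all of them, most on arrays 2 and 4. Its mean of 1.36 ± 0.21 (SE, n = 6; 2.56-fold, adjusted p = 0.0012) was the largest of the 9 clones, above that of 99.5% of all clones. With print-tip loess it was 1.22 ± 0.20 (adjusted p = 0.0242), with a lowest value of 0.47 on array 1 and a highest of 2.00 on array 4. It was also the only granin clone called with print-tip loess without arrays 2 and 4 (0.86, adjusted p = 0.0428).

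Scg3-7 had 0.02, 0.47, 1.14, 0.44 and 0.34 on arrays 1, 3, 4, 5 and 6, and a quality score of 0 on array 2. Its mean of 0.48 ± 0.16 (SE, n = 5, adjusted p = 0.0385) lost its call without array 3, 4 or 5, and was 0.32 without array 4 (adjusted p = 0.184). With print-tip loess it was 0.61 ± 0.17 and did not pass (adjusted p = 0.0514), except without array 1 (0.76, adjusted p = 0.0315). Scg3-5, the clone closest to background, had 0.23, -0.54, -0.56, -0.42, -0.35 and -0.38 with global loess. It was below 0 on 5 of 6 arrays, with a mean of -0.34 ± 0.13 that did not pass (adjusted p = 0.0667), although it passed without array 1 (-0.45, adjusted p = 0.0176). With print-tip loess its values were 0.33, -0.19, 0.00, 0.31, 0.12 and 0.60, and its mean was 0.19 ± 0.11 (adjusted p = 0.223).

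**Figure D2:**
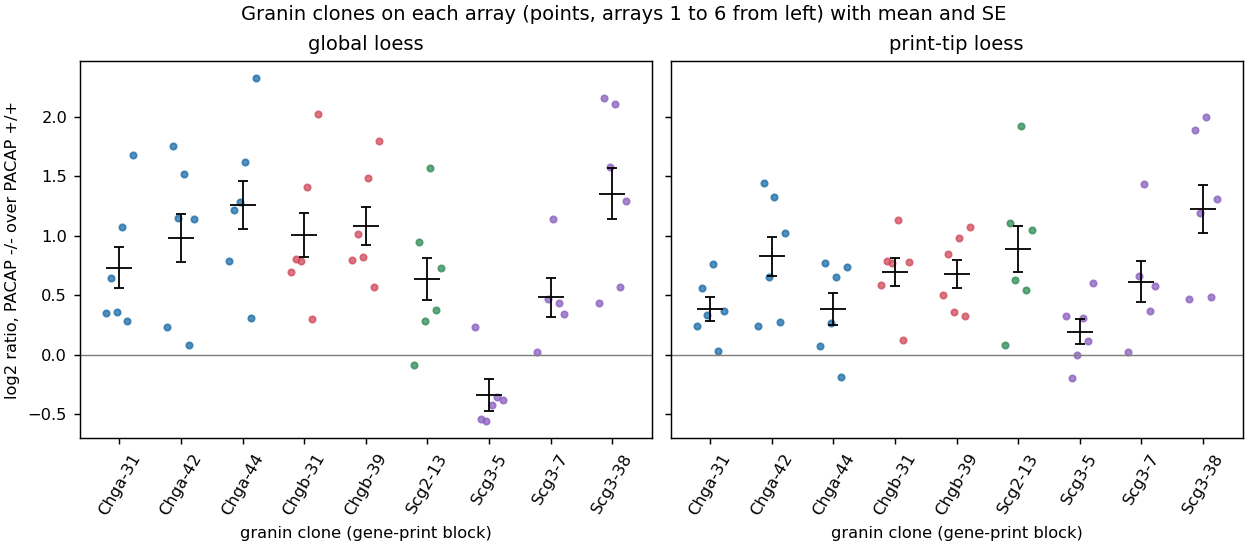
Log2 ratio of PACAP -/- over PACAP +/+ for the 9 granin clones after global loess (left) and print-tip loess (right). Points are arrays 1 to 6 from left to right and bars are the mean and its SE. With global loess, Scg3-5 was the only clone with a mean below 0, at -0.34. With print-tip loess all 9 means were above 0, from 0.19 to 1.22.

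Averaging the clones of each gene on each array gives 1 value per gene and array. With global loess Chga had 0.46, 1.21, 0.93, 1.41, 0.23 and 1.72 on arrays 1 to 6, a mean of 0.99 ± 0.57 (SD, n = 6; 1.99-fold). Chgb had 0.75, 0.91, 0.81, 1.45, 0.44 and 1.91, a mean of 1.04 ± 0.54 (SD, n = 6). Scg3 had 0.23, 0.81, 0.50, 0.94, 0.22 and 0.42, a mean of 0.52 ± 0.30 (SD, n = 6), its array 2 resting on 2 clones. These 3 genes were higher on all 6 arrays, and in an exact two-sided sign-flip permutation test each had p = 0.03125, the smallest that 6 arrays allow, and 0.0417 after adjustment over the 4 genes. Scg2 was at 0.64 ± 0.58 (SD, n = 6), higher on 5 of 6 arrays (exact permutation p = 0.0625, also after adjustment). Any gene with 1 sign on all 6 arrays reaches the p of 0.03125 in this test. The share of all named genes that do so, in either normalization, is not given here. These p-values thus do not set the granins apart from other genes. The 4 genes were chosen with earlier results of these data known. In neither normalization does the adjustment over 4 genes account for that choice.

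With print-tip loess all 4 genes were higher on 6 of 6 arrays, each with an exact permutation p of 0.03125 before and after adjustment. The means there were 0.53 ± 0.37 for Chga, 0.69 ± 0.30 for Chgb, 0.89 ± 0.63 for Scg2 and 0.69 ± 0.37 for Scg3 (SD, n = 6 each). In order of ratio the genes ran Chgb, Chga, Scg2 and Scg3 with global loess, but Scg2, Scg3, Chgb and Chga with print-tip loess. None of the 6 differences between genes passed an exact sign-flip permutation test after adjustment over them (lowest adjusted p 0.0938 and 0.125). A difference could pass only if most of the 6 reached the smallest p of 0.03125 together. The test thus cannot show that the genes have equal ratios. The widest were Chgb minus Scg3 with global loess, at 0.52 ± 0.50 (SD, n = 6; above 0 on 6 of 6 arrays), and Chga minus Scg2 with print-tip loess, at -0.36 ± 0.38 (above 0 on 1 of 6).

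Clones annotated to the same gene were set against each other on each array, in 7 pairs, of which 2 hold Chga-42, the clone titled as another gene. None of the 7 differences passed an exact sign-flip permutation test after adjustment over the pairs, the lowest adjusted p being 0.109 in each normalization. The smallest p of this test is 0.03125 with 6 arrays and 0.0625 with 5. After adjustment a pair could pass only if most of the 7 pairs reached the smallest p together. The test thus cannot show that clones of a gene gave equal ratios. The widest difference was Scg3-38 minus Scg3-5, at 1.69 ± 0.97 (SD, n = 6) with global loess and 1.03 ± 0.76 with print-tip loess, above 0 on 6 of 6 arrays in both. Chga-44 minus Chga-31 was 0.52 ± 0.30 with global loess (above 0 on 6 of 6 arrays) and 0.00 ± 0.23 with print-tip loess (2 of 6). Chga-44 minus Chga-42 had opposite signs in the normalizations, at 0.28 ± 0.57 and -0.44 ± 0.20 (above 0 on 5 of 6 arrays and on 0 of 6). The closest pair was Chgb-39 minus Chgb-31, at 0.08 ± 0.17 and -0.02 ± 0.25.

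The ratios of the granin clones moved with their place on the slide. The mean log2 ratio of all spots in a print block, after global loess, ranged from -0.57 to 0.56 over the 48 blocks, each with 519 to 682 spots, and was lowest in the first blocks. Block 44, which holds Chga-44, averaged 0.52, whereas block 5, which holds Scg3-5, averaged -0.51. Across the 9 clones the Pearson correlation of the clone's ratio with its own block mean was 0.85 with global loess and 0.10 with print-tip loess. The block mean was that of global loess in both. Print-tip loess is fitted within each block, so the lower correlation is largely set by the normalization. Both correlations are a description over 9 clones that share the same 6 arrays. Every granin clone lay above the mean of its own block, by 0.17 (Scg3-5) to 1.28 (Scg3-38).

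**Figure D3:**
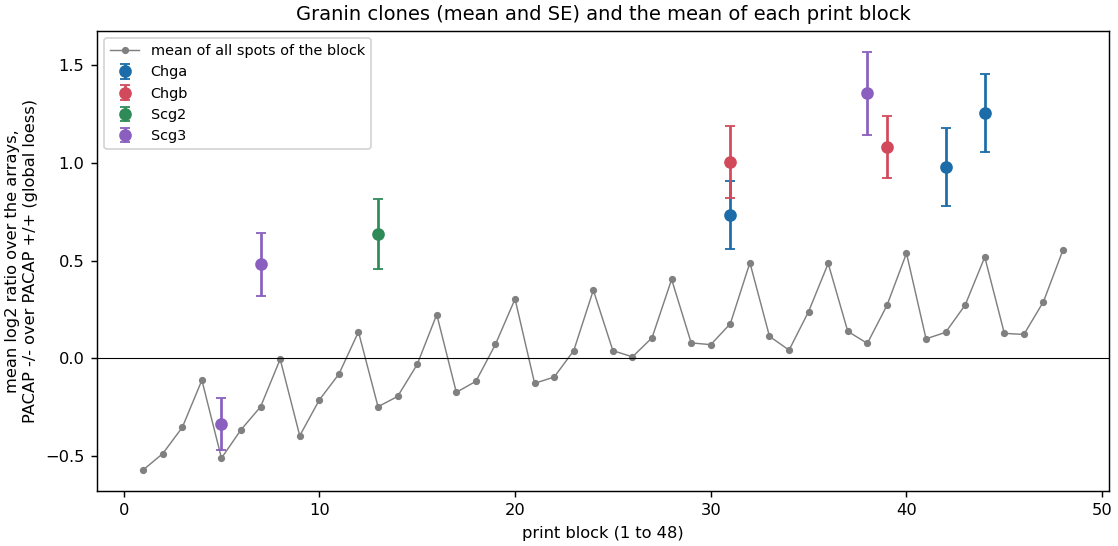
Mean log2 ratio of PACAP -/- over PACAP +/+ after global loess against print block (1 to 48). Grey points are the mean of all spots in a block, from -0.57 to 0.56, and coloured points are the granin clones with their SE over arrays. All 9 granin clones lay above the grey point of their block.

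The size of the granin difference also varied by array. The median over the granin clones with global loess was 0.35, 0.98, 0.79, 1.49, 0.31 and 1.29 on arrays 1 to 6, and 0.25, 0.82, 0.63, 1.13, 0.27 and 0.78 with print-tip loess. Arrays 4, 6 and 2 had the highest medians with global loess, and arrays 1 and 5 the lowest. Over all spots, the median red (wild-type) signal was 4.79, 1.37, 2.07, 1.14, 2.11 and 1.65 times background on arrays 1 to 6, lowest on those same arrays 4, 2 and 6. The median green (knockout) signal was between 5.39 and 7.07 times background. The part of the weak red channel in the result was not tested. Without arrays 2 and 4, where red was faintest, 4 granin clones passed as higher with global loess, namely Chga-44 (1.18), Chgb-31 (0.95), Chgb-39 (1.00) and Scg3-38 (0.97), where 6.22% of all clones did. With print-tip loess that count was 1 of 9, where 0.336% of all clones did.

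Both forms of loess centre the ratio at each level of signal. A median near 0 among bright clones is thus set by the normalization, and says nothing of the granins. Of the 2871 clones with the highest mean signal, which hold 2 of the granin clones, 23.9% passed as higher with global loess and 11.0% with print-tip loess. Their median ratio was 0.05 and -0.01. The 9 granin clones stood between the 60.4 and the 95.0 percentile of signal.

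Other genes of the granule were set beside the granins, each by its clone of highest signal. Among the 10400 named genes tested this way, 16.2% passed as higher and 14.8% as lower with global loess (31.0% in all), and 7.58% and 3.46% with print-tip loess (11.0% in all). None of the 3 measured relatives of the granins passed by this clone in either normalization, although the other of the 2 clones of Pcsk1n, for a convertase inhibitor precursor, passed as higher in both. The lowest p with global loess was that of Scg5, for the prohormone convertase chaperone 7B2. Scg5 was at 0.33 ± 0.14 (SE, n = 6, adjusted p = 0.0988 in limma), or 0.02 ± 0.07 with print-tip loess. Vgf, named after its values were seen, had the lowest p with print-tip loess, at 0.29 ± 0.11 (n = 6, adjusted p = 0.105). Its ratio with global loess was 0.28 ± 0.14 (adjusted p = 0.153). Of 7 measured peptide precursors, 1 passed as lower with global loess and none with print-tip loess. The lower one was Sst, for somatostatin, at -0.80 ± 0.15 (n = 4, adjusted p = 0.0033), but at -0.05 with print-tip loess, its clone lying in the block with the lowest mean. Another clone of Adm, for adrenomedullin, passed as higher with global loess. Over the list the median was -0.11 and -0.06.

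Of 11 measured granule enzymes and membrane proteins, global loess put 2 past the threshold as higher and 2 as lower, the other 7 not passing, and print-tip loess 3 as higher and 1 as lower. Pam, for the enzyme that amidates peptides, was at 0.50 ± 0.15 (SE, n = 6, adjusted p = 0.0262) and at 0.42 ± 0.11 with print-tip loess (adjusted p = 0.0398), higher on 6 of 6 arrays in both. Slc18a1, for the vesicular monoamine transporter of chromaffin granules, was lower in both, at -0.41 ± 0.14 (n = 5, adjusted p = 0.0415) and -0.46 ± 0.10 (adjusted p = 0.0314). It lay below 0 on all 5 arrays that measured it, the opposite side from the granins. Rab27a, for a GTPase of granule docking, was at -0.44 ± 0.14 (adjusted p = 0.0304) and at -0.09 with print-tip loess. The largest ratio of the list with print-tip loess was that of Ptprn, for a granule membrane phosphatase-like protein, at 1.11 ± 0.29 (n = 6, adjusted p = 0.0398), against 0.42 ± 0.25 with global loess (adjusted p = 0.214). It was named after its values were seen. Among genes that did not pass with global loess, other clones were called higher for Cpe (2 of its 3), Sv2a (1 of 2) and Syt7 (1 of 2). Over the list the median was 0.16 and 0.19.

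**Figure D4:**
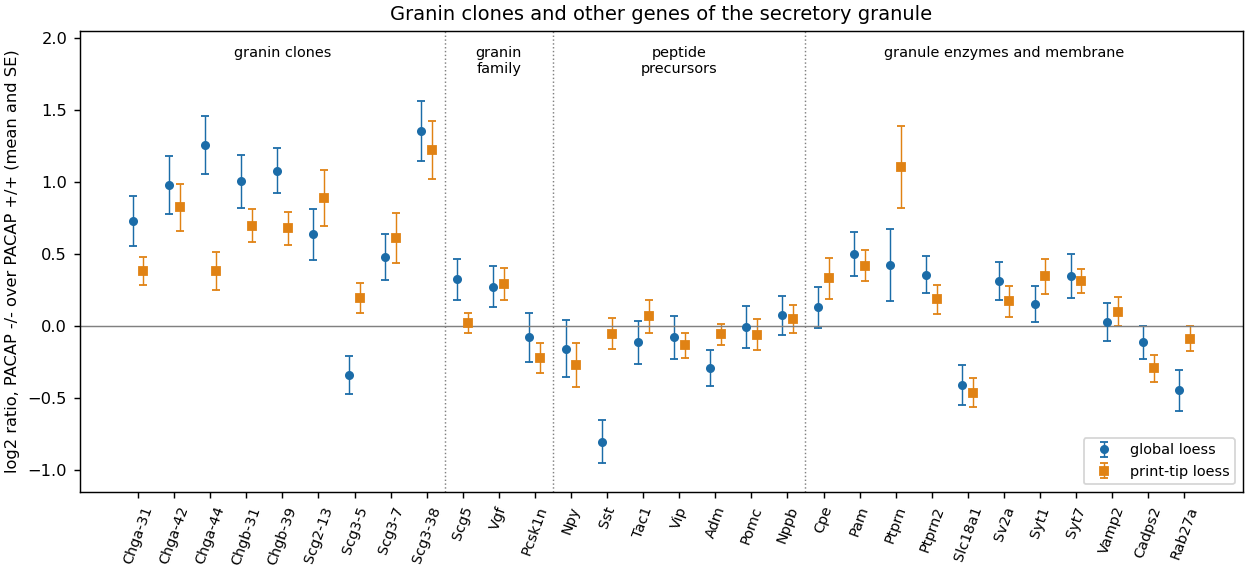
Log2 ratio of PACAP -/- over PACAP +/+ (mean and SE over arrays) for the 9 granin clones and for other granule genes by their clone of highest signal, after global loess (circles) and print-tip loess (squares). Most of the other granule genes lay nearer to 0 than the granin clones. Slc18a1 was below 0 in both, at -0.41 and -0.46.

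Of 9 measured transcription factors known to act on granin promoters or in the neuroendocrine programme, 4 were higher and 1 was lower with global loess, and 2 were higher with print-tip loess. Jun, an AP-1 subunit, was at 0.76 ± 0.15 (SE, n = 6, adjusted p = 0.0036) and 0.70 ± 0.12 (adjusted p = 0.0242). Crem, for a cAMP-responsive element modulator, was at 0.65 ± 0.14 (adjusted p = 0.0051) and 0.60 ± 0.13 (adjusted p = 0.0314). Both were higher on 6 of 6 arrays. Atf4, a stress-induced factor, was at 0.64 ± 0.15 with global loess (adjusted p = 0.0063) but at 0.06 with print-tip loess, and another of its 3 clones passed as higher and the third as lower with global loess. Over the list the median was -0.12 and -0.07.

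Markers of the cells of the gland were read in the same way. Of 9 measured chromaffin markers, 2 were higher and 1 was lower in each normalization, Slc18a1 being the lower one in both and the higher ones Th and Stmn2 with global loess, Uchl1 and Eno2 with print-tip loess. Dbh and Pnmt, which also mark chromaffin cells, had no tested clone. Th, for the rate-limiting enzyme of catecholamine synthesis, had -0.07, 1.64, 0.95, 2.09, 0.26 and 1.72 on arrays 1 to 6 with global loess, lowest on arrays 1 and 5 like the granins. Its mean was 1.10 ± 0.24 (SE, n = 6, adjusted p = 0.0052), and 0.65 ± 0.22 with print-tip loess (adjusted p = 0.072). Stmn2, a neuronal growth protein gene, passed at 0.50 ± 0.12 (adjusted p = 0.0079) but was at -0.19 with print-tip loess, below 0 on every array, where both its other clones passed as higher. For Uchl1, 2 of its 5 clones other than the one used passed as higher with global loess, and the other Eno2 clone passed as lower. Over the list the median was 0.10 and 0.23, and the summed signal lay between 13482.4 and 19632.5 in the knockout channel and between 2916.6 and 12749.5 in the wild-type channel.

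Some cortex markers were higher beside the granins. Of 7 measured ones 4 passed as higher with global loess and 3 with print-tip loess, and none passed as lower. Without arrays 2 and 4, 1 of 6 tested passed with global loess and 0 with print-tip loess in limma (2 at an unadjusted p under 0.05). Fdx1, for the electron donor ferredoxin, was at -0.34 ± 0.13 with global loess (n = 6, adjusted p = 0.0601), below 0 on 6 of 6 arrays, although its other clone passed as higher. Hsd3b1, for a steroid dehydrogenase, had a mean of 1.60 ± 0.30 (SE, n = 5, adjusted p = 0.0029), and 1.40 ± 0.31 with print-tip loess (adjusted p = 0.0321). Star, for the carrier that brings cholesterol to mitochondrial side-chain cleavage, was at 1.53 ± 0.27 (n = 6, adjusted p = 0.002) and at 0.67 ± 0.24 (adjusted p = 0.0844). The list's median by array was 0.10, 1.44, 0.18, 1.00, 0.07 and 0.60 on arrays 1 to 6 with global loess, highest on arrays 2, 4 and 6, as for the granins. Its summed signal was between 50961.7 and 86914.9 in the knockout channel and between 6532.1 and 49164.7 in the wild-type channel. No measured cortex marker was at the floor of 1.0 (lowest signal 458.5 in the knockout channel and 102 in the wild-type channel). In the chromaffin, granule enzyme and Schwann lists, however, the lowest signal was at that floor in both channels. The part of the cortex cells in the granin result was not tested.

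By their clone of highest signal the 4 measured Schwann and sustentacular markers did not pass in either normalization, Mbp having the lowest p (-0.22 ± 0.12, SE, n = 6, adjusted p = 0.194; 0.12 with print-tip loess). Of the other Mbp clones, 11 in all with this one, 3 passed as lower and 1 as higher with global loess. The summed signal of the list lay between 4106.6 and 6649.8 in the knockout channel and between 1132.8 and 5000.7 in the wild-type channel. Of 4 endothelial markers 1 passed, Emcn at 0.58 ± 0.14 (adjusted p = 0.0096), and none did with print-tip loess (Emcn 0.31). Pecam1 (-0.15), Cdh5 (-0.13) and Kdr (-0.23) lay below 0 with global loess and did not pass. The median of the endothelial list was -0.14 with global loess. Endothelial signal summed to 1774.6 to 3968.6 in the knockout channel and 658.5 to 2275.1 in the wild-type channel. Of 4 macrophage markers 2 passed as higher, C1qb at 0.94 ± 0.22 (adjusted p = 0.0078) and Cd68 at 0.63 ± 0.20 (n = 5, adjusted p = 0.0292). With print-tip loess C1qb alone did, at 0.88 ± 0.22 (adjusted p = 0.0367). Macrophage signal summed to 6543.6 to 7599.5 in the knockout channel and 1188.9 to 5851.6 in the wild-type channel.

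The genes whose ratios over the 6 arrays lay closest to the mean of the 4 granin genes were found by root mean square difference among 8689 named genes measured on all arrays. With global loess they were Cct7 (0.12), Dab2 (0.13), Ppp1r12c (0.14), Nfe2l2 (0.14) and Calr4 (0.15), where the median gene was 0.90 away. Cct7, a subunit gene of the cytosolic chaperonin, had a mean ratio of 0.72 ± 0.15 (SE, n = 6, adjusted p = 0.0045) beside a granin mean of 0.80. With print-tip loess they were C030006K11Rik (0.08), Hspa14 (0.09), Kcnma1 (0.10), Acvr1 (0.10) and Rhov (0.13), with a median gene at 0.80. The 2 sets of 5 had 0 genes in common.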

How the data were processed

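Adrenal RNA of PACAP -/- and PACAP +/+ mice was compared on 6 spotted NIMH 36K cDNA arrays of 37632 spots. A GenePix 4000A scanner, IPLab and FileMaker Pro are named in the design text deposited with the series, which also sets the quality limit of 0.3. Software versions and a genome build are not given in the sources used here. The deposited red and green intensities had the local background subtracted already, since empty positions read 1.0 in both channels. The deposited quality score of a spot lies between 0 and 1. The deposited calibrated ratio is red over green after division by a constant. The authors' value table holds log2 ratios of red over green with the background subtracted a second time, divided by a constant and not centred (array medians -2.59 to -0.10). That description matched the scanner values within 0.0005 on linked spots. Because probes were linked to spots by these same values, within 0.002, the match is partly set by the link. Of 2294 linked probes whose sequence identifier the scanner data also hold, 2294 lay on the spot with that identifier. The sign was turned here to knockout over wild type.

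Gene names came from the probe annotation of the value table, 35793 of whose 35873 probes (99.8%) were linked to 1 spot by their values on the 6 arrays. Of 36008 clones, 22364 had 1 gene, 1105 several and 12539 none listed, and 11616 of 11837 gene symbols were found in the RefSeq table. Of the granin clones, the file title names the gene for 5, another gene for 2 and only a tag for 2. Spots with quality above 0.3 were kept (25986 to 31898 per array), 1105 control or empty spots were left out, log2 ratios were normalized by loess (span 0.3, 4 iterations), spots of a clone were averaged, and 28704 clones measured on at least 4 arrays were tested for a mean other than 0 in limma 3.58.1 (lmFit, eBayes; R 4.3.3). P-values were adjusted by the Benjamini-Hochberg method over all clones, with a threshold of 0.05. Single genes and clone pairs were tested with exact two-sided sign-flip permutation tests in Python 3.11.15. The fit was tested on simulated data. Alternatives were print-tip loess, median centring, the authors' value table, other quality and signal filters, and leaving out arrays. The granin genes, gene lists and motifs were chosen with earlier results of these data known. The genes named were all granin clones, the 3 called genes of each granule list and the 2 of each marker list with the largest ratio with global loess (with none called, the gene of lowest p), and the 5 genes nearest to the granin mean.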

Additional observations from a re-analysis of the deposited data

Results flagged for a closer look

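Of the 9 granin clones, 1 had an array far from the others in Dixon's test for 6 arrays. Scg3-5 was at 0.23 on array 1 with global loess, whereas its other 5 arrays lay between -0.56 and -0.35. Chance alone sets apart about 1 group in 20. The same clone was the closest to its local background, and array 1 was the array with the strongest red signal. Their part in this value was not tested.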

How the results depend on the processing

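With other processing, the count of granin clones past the threshold, 8 with global loess, was 6 with print-tip loess, 5 with median centring, 0 in the authors' value table, 4 without arrays 2 and 4, and 1 with print-tip loess without them, a setting chosen after seeing the data. With 1 array left out it ran from 6 to 9, or from 0 to 7 with print-tip loess. Among all clones the count of 8723 became 3256 with print-tip loess, 88 in the value table, 2235 without arrays 2 and 4 and 93 with print-tip loess without them, and ran from 4482 to 8659 with 1 array left out, or from 1 to 3770 with print-tip loess (1 without array 2, 3 or 6, 23 without 4, 2692 without 5). Other quality limits and a filter on dim spots left 8 granin calls, where 7443 to 8264 of all clones passed. Requiring all 6 arrays left 7 of 8 granin clones, where 7465 of all clones passed. In the value table the genes were at 0.033 (Chga), 0.25 (Chgb), -0.10 (Scg2) and 0.023 (Scg3), and Chga-31 at -0.29, Scg2-13 at -0.10 and Scg3-7 at -0.16 changed sign. Median centring gave 0.67 for Chga, 0.81 for Chgb (exact permutation p adjusted 0.0625 each) and 0.35 for Scg3 (0.0833). Scg2 passed with print-tip loess (0.89), and Chga was 0.34 there without arrays 2 and 4. Scg3-5 turned to 0.19 with print-tip loess, and to 0.26 in that normalization without arrays 2 and 4. Without array 1 to 6 in turn, print-tip loess gave 0.17, 0.27, 0.23, 0.17, 0.21 and 0.11. Global loess kept Scg3-5 below 0, at -0.26 without arrays 2 and 4 and from -0.45 to -0.29 with 1 array left out. The cause of these changes was not tested. With 1 array left out, gene means ran from 0.85 to 1.14 for Chga, 0.87 to 1.17 for Chgb, 0.45 to 0.78 for Scg2 and 0.43 to 0.58 for Scg3, and with print-tip loess from 0.45 to 0.63, 0.62 to 0.78, 0.68 to 1.05 and 0.58 to 0.77 in that order, where 5 arrays allow no exact p under 0.0625. Of 188 values of single clones under another setting, 116 kept their direction and side of the threshold, 60 lost the call, 1 gained it and 11 changed sign. A wild-type signal of 1.11 times background, as for Scg3-5 on array 4, limits what its ratio can show. The test of each array's ratio against 0 already pairs the genotypes by array, and no further replicate block was fitted.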
